A study of Mus musculus with 11 samples.

Results

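Unstimulated mouse epiblast stem cells (EpiSCs) that carried the GY118F transgene were compared with unstimulated control EpiSCs, across the autosomes. All probes of the deposited table that map to chromosomes 1 to 19 were taken, without selection by value: 13243 of 15718 probes, which stand for 8877 genes with 1 probe kept per gene. Both lines were of strain 129xMF1 and grew in N2B27 medium with Activin and Fgf. The comparison used 3 GY118F arrays and 3 control arrays without G-CSF. GY118F arrays (n = 2) and control arrays (n = 3) from cells given G-CSF for 3 hours gave a line comparison of their own, on arrays that the unstimulated comparison did not use.

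EpiSCs are pluripotent cells that resemble the epiblast after implantation. Activin, acting through SMAD2 and SMAD3, and Fgf, acting through ERK, hold them in this primed state. In it they express Pou5f1 together with Otx2, Fgf5, Nodal and Nodal's feedback inhibitors, the Lefty genes, while genes of the naive state are low. Removal of these signals lets such cells take on neural or other fates. GY118F is a fusion receptor: its outer part binds G-CSF and its inner part comes from gp130, without the tyrosine that docks Shp2, so that G-CSF drives STAT3. Without G-CSF the receptor has no added ligand, and the comparison asks what the baseline state of the 2 lines was.

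The labels name 1 line with the transgene and 1 control line, and do not say how the lines were derived from each other or whether either is a clone. An effect of the receptor and a difference between the lines that has another origin cannot be told apart in this design. The labels do not say that replicates came from separate cultures either, so p-values here reflect the scatter of these arrays, which can be technical. Csf3r, which encodes the G-CSF receptor, has no feature among the genes here. Il6st, which encodes gp130, differed by 0.08 ± 0.05 on the log2 scale (GY118F minus control, estimate ± SE) and was not called (limma, Benjamini-Hochberg adjusted p = 0.315). The transgene itself could therefore not be checked from the arrays.

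The deposited values are on a log2 scale and ran from 7.11 to 15.22, with a median of 8.16. Arrays of the same group correlated at 0.994 to 0.998 over all features, and the 9 pairs of an unstimulated GY118F with an unstimulated control array at 0.976 to 0.982. Replicate 3 of unstimulated GY118F stood apart from the other GY118F arrays in some genes. Of 47 autosomal genes with an SD over 0.3 among these 3 arrays, replicate 3 was the farthest from the others in 42. Several results are given with and without it, and all other values include it. The sex-chromosome transcripts also separated the lines. Xist, the RNA that coats the inactive X chromosome, had levels of 7.15 to 7.19 on the GY118F arrays and 9.35 to 9.70 on the control arrays. Y-linked Eif2s3y, which encodes a translation initiation factor subunit, had levels of 8.71, 8.77 and 9.17 on the GY118F arrays and 7.14 to 7.24 on the control arrays. These genes are not part of the autosomal comparison. By these RNAs the GY118F line looked male and the control line female, so sex goes along with the transgene in this design. Their effects on autosomal genes cannot be told apart.

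The lines differed in many autosomal genes, mostly by small amounts. GY118F EpiSCs had more RNA of genes on a neural list such as Ptn and Sox21, and of Igfbp5 and Gbx2. They had less RNA of primed epiblast genes such as Lefty1, Nodal, Otx2 and Fgf8, and of interferon-inducible genes such as Ifitm3, Psmb8 and Irf1. A gene was called when its Benjamini-Hochberg adjusted p in limma was below 0.05. By this rule 1568 of 8877 autosomal genes were higher in GY118F EpiSCs (17.7%) and 1551 were lower (17.5%), 35.1% in all. These shares are the background for every count of list members below. The median difference over all autosomal genes was 0.00 (quartiles -0.10 and 0.11). Among genes called higher the median difference was 0.28, which is a fold of 1.22 if the scale is a plain log2, and among genes called lower it was -0.28, a fold of 1.21. With a fold of at least 1.4 asked as well, 299 genes were higher (3.37%) and 329 lower (3.71%). A difference over 1 on the log2 scale was seen in 57 genes called higher and 59 called lower. Over all autosomal genes, the 3 GY118F arrays did not overlap with the 3 control arrays in 47.3%. Genes off the autosomes, or with no chromosome here, were called in 604 of 2331 features (25.9%).

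**Figure D1:**
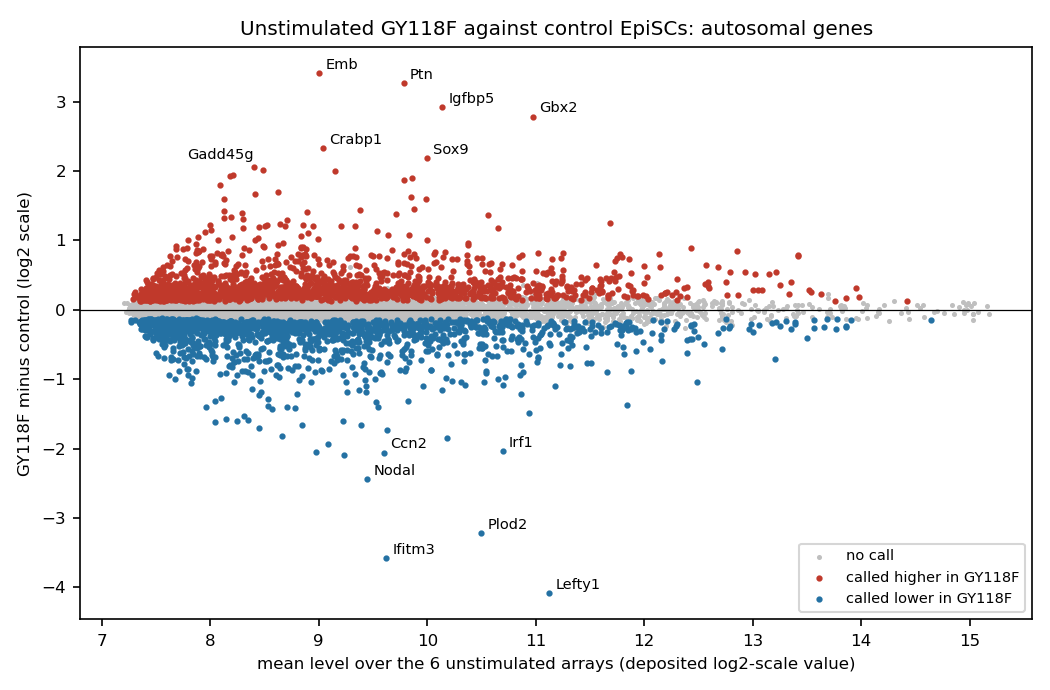
Each point is 1 autosomal gene, placed by its mean level over the 6 unstimulated arrays (horizontal axis, deposited log2-scale value) and by GY118F minus control (vertical axis, log2 scale). Red and blue points are the 1568 genes called higher and the 1551 called lower, grey points are not called, and the called genes spread to both sides of 0 about equally, with Emb at 3.41 and Lefty1 at -4.08 as the extremes.

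The largest rises were in Emb, Ptn, Igfbp5 and Gbx2. Emb, which encodes embigin, a membrane partner of lactate transporters, had levels of 10.57, 10.71 and 10.85 on the GY118F arrays and 7.33, 7.22 and 7.35 on the control arrays. The control arrays are near the lowest value of the table, so no exact fold is given. The groups lay far apart, and the difference was 3.41 ± 0.07 (limma, Benjamini-Hochberg adjusted p = 4.07e-12). Ptn, which encodes the heparin-binding growth factor pleiotrophin, had levels of 11.60, 11.45 and 11.20 against 8.09, 8.19 and 8.17, a difference of 3.27 ± 0.08. Igfbp5, which encodes a secreted binding protein of insulin-like growth factors, had levels of 11.57, 11.49 and 11.73 against 8.65, 8.59 and 8.79, a difference of 2.92 ± 0.08. In each of these genes the lowest GY118F array was more than 2 log2 units above the highest control array. Crabp1, a cytosolic retinoic acid binding protein, stood at 10.20, 10.10 and 10.30 against 7.84, 7.89 and 7.88. The neural crest and cartilage factor Sox9 stood at 11.22, 11.15 and 10.88 against 9.02, 8.84 and 8.85.

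Gadd45g, a stress and differentiation gene of the GADD45 family, had levels of 9.49, 9.42 and 9.38 on the GY118F arrays and 7.34, 7.40 and 7.37 on the control arrays. Its difference was 2.06 ± 0.05. The other genes among the 15 largest rises differed by 2.01 (Mfap2, a microfibril protein), 2.00 (Sox21), 1.95 (the neurotrophic factor Gdnf), 1.92 (Epdr1), 1.90 (Ddah1, which degrades methylated arginines), 1.86 (Cited2, a CBP/p300 binding cofactor), 1.80 (Cbwd1) and 1.70 (the Fgf receptor Fgfr2). All of these were higher on each GY118F array than on any control array, as the rule for naming them required.

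Gbx2 and Otx2 are homeobox genes that oppose each other in the patterning of the neural plate, where their border marks the boundary between midbrain and hindbrain. They lay at opposite ends of the comparison. Gbx2 had levels of 12.26, 12.41 and 12.44 on the GY118F arrays and 9.49, 9.53 and 9.73 on the control arrays, a difference of 2.78 ± 0.08. Otx2 had levels of 8.14, 8.25 and 8.18 against 10.41, 10.28 and 10.14, a difference of -2.09 ± 0.07. Gbx2 was thus high and Otx2 low on every GY118F array, with the reverse on every control array. With G-CSF the same line difference was 1.39 for Gbx2 and -1.69 for Otx2. The control mean of Gbx2 was 11.87 on the arrays with G-CSF, against 9.59 without it.

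**Figure D2:**
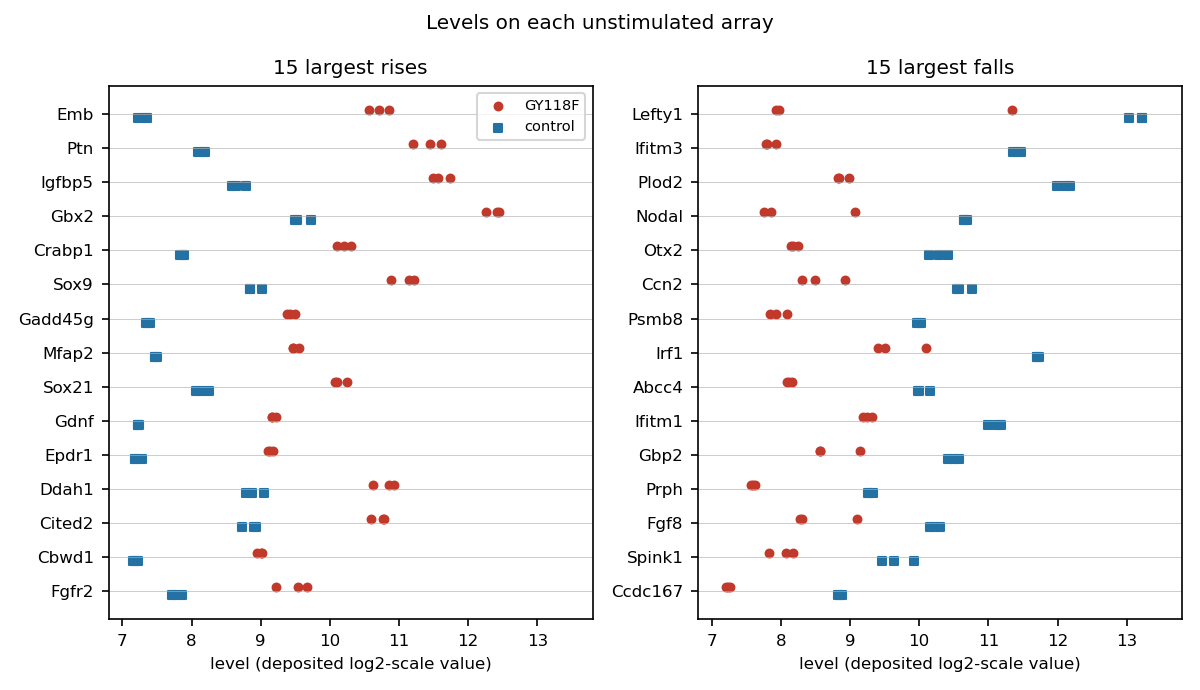
Levels on each of the 6 unstimulated arrays (horizontal axes, deposited log2-scale value) of the 15 autosomal genes with the largest rise (left) and the 15 with the largest fall (right) in GY118F EpiSCs. Red circles are the 3 GY118F arrays and blue squares the 3 control arrays; in Lefty1, Nodal and Fgf8, 1 GY118F array lies between the other 2 and the control arrays.

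Lefty1 and Nodal were among the genes with the largest falls. Lefty1, a secreted inhibitor of Nodal that is itself a target of Nodal and Activin signalling, had levels of 7.93, 7.97 and 11.34 on the GY118F arrays and 13.22, 13.04 and 13.22 on the control arrays. GY118F replicate 3 lay between the other GY118F arrays and the controls, and the difference was -4.08 ± 0.64 (limma, Benjamini-Hochberg adjusted p = 0.000314). Without that replicate it was -5.21, and without replicate 1 or 2 it was -3.51 or -3.53, slightly smaller in size than the difference of Ifitm3 on the same arrays (-3.63 and -3.56). The ligand Nodal had levels of 7.86, 7.75 and 9.07 against 10.69, 10.65 and 10.65, a difference of -2.44 ± 0.24 with replicate 3 and -2.86 without it. Fgf8, a ligand of the primitive streak and epiblast, had levels of 8.31, 8.27 and 9.10 against 10.22, 10.30 and 10.15. Its difference was -1.66 ± 0.17, and -1.93 without replicate 3. Replicate 3 was thus the highest of the GY118F arrays in all 3 genes, and it was so in 9 of the 15 largest falls.

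Of 13 measured genes on a list of primed epiblast markers, 7 were lower and 1 was higher in GY118F EpiSCs, and the list's median difference was -0.36, against 0.00 over all autosomal genes. Without GY118F replicate 3 the counts were 7 and 2. Besides Lefty1, Nodal, Otx2 and Fgf8, the lower genes were Fgf5 (-1.41 ± 0.11), an Fgf ligand that marks the primed state, the Nodal inhibitor Lefty2 (-0.94 ± 0.10) and Cer1 (-0.36 ± 0.07), a secreted antagonist of Nodal, BMP and WNT. Fgf5 had levels of 8.63, 8.71 and 9.19 on the GY118F arrays and 10.32, 10.30 and 10.13 on the control arrays. Its difference was -1.58 without GY118F replicate 3. Sfrp2, a secreted WNT modulator, was the member called higher (0.36 ± 0.09). Pou3f1, which encodes the POU factor Oct6, and Dnmt3b, a de novo DNA methyltransferase, were not called, with differences of -0.14 ± 0.06 and 0.23 ± 0.10. The mean level of the 13 genes was 8.62 to 9.16 on the GY118F arrays and 9.70 to 9.79 on the control arrays, so the arrays of the lines did not overlap. Fewer cells with a given marker and less of its RNA per cell cannot be told apart in these bulk samples.

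Pou5f1 and Nanog had high levels in both lines and were lower in GY118F EpiSCs. Pou5f1, which encodes Oct4, had levels of 11.77, 11.85 and 11.75 on the GY118F arrays and 12.55, 12.42 and 12.61 on the control arrays, a difference of -0.74 ± 0.08. All 6 values lie far above the median of the arrays, and the GY118F arrays are below all control arrays. Nanog, another pluripotency factor, had levels of 10.13, 10.34 and 10.82 against 11.51, 11.33 and 11.14, a difference of -0.90 ± 0.15 (limma, Benjamini-Hochberg adjusted p = 0.000459). Without GY118F replicate 3 the difference of Nanog was -1.09. Of 13 measured core genes 4 were lower and Sox2 was higher (0.51 ± 0.07). The others that were lower were the Nodal co-receptor gene Tdgf1 (-0.91 ± 0.22), L1td1 (-0.49 ± 0.09) and Utf1 (-0.46 ± 0.06). The stem cell factors Sall4 and Lin28a differed by -0.03 ± 0.08 and 0.27 ± 0.13 and were not called. Some members lay near the lower end of the range in both lines, such as Lin28b (7.55 and 7.58) and Dppa4 (7.67 and 7.63), and their presence could not be judged. Among 6 measured naive genes (18 listed), Gbx2 was the member called higher and Nanog the member called lower.

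Other parts of the Activin and Nodal pathway moved in both directions. Of 16 measured genes, 7 were lower and 4 higher. Skil (-0.67 ± 0.11) and Ski (-0.41 ± 0.04), which restrain SMAD transcription, were lower along with Lefty1, Nodal, Lefty2, Tdgf1 and Cer1. Ski lies in a region at the end of chromosome 4 whose genes were lower as a whole, as described with the autosomes. Fst, which encodes the Activin-binding antagonist follistatin, was higher by 1.21 ± 0.09. Smad3, a transcription factor of the pathway, was higher by 0.53 ± 0.06, and Furin, a protease that matures Nodal, by 0.34 ± 0.07. Smad2 and its partner Foxh1 differed by 0.00 ± 0.07 and 0.04 ± 0.05 and were not called. In the FGF and ERK list, 4 of 17 genes were higher and 4 lower, shares not far from those over all autosomal genes (17.7% and 17.5%). The receptor Fgfr2 and the ERK phosphatase genes Dusp4 and Dusp6 (0.26) were higher, while the ligands Fgf8 and Fgf5, the ETS factor Etv5 (-0.33) and the immediate early factor Egr1 (-0.41) were lower.

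Most measured genes of a neural list were higher in GY118F EpiSCs. Of 32 listed neural and neuroectoderm markers, 14 were measured. Of these, 10 were higher and 0 lower, with a median difference of 0.73 and the same counts without GY118F replicate 3. The list was chosen with earlier results of these data known and holds Ptn, so the count is no test. Prph, which encodes a neuronal intermediate filament and is not on the list, was lower (-1.70). Sox21, a SOX factor of neural progenitors, had levels of 10.25, 10.11 and 10.07 on the GY118F arrays and 8.25, 8.14 and 8.06 on the control arrays. Beside Ptn and Sox21, the homeobox genes Irx3 (1.67 ± 0.11), Meis2 (1.38 ± 0.09), Meis1 (1.15 ± 0.06) and Irx5 (0.90 ± 0.06) were higher. Sox11, a SOX factor of immature neurons, was higher by 1.25 ± 0.06, and the midbrain and hindbrain gene En2 by 0.56 ± 0.08. Zic1 (0.46) and the NOTCH effector Hes5 (0.29) were higher by less. Nes, which encodes nestin, and Ncam1 were not called, with differences of -0.14 ± 0.08 and 0.13 ± 0.09. The mean level of the 14 genes was 8.96 to 9.01 on the GY118F arrays and 8.04 to 8.07 on the control arrays.

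Of 9 measured neural crest genes (15 listed) 6 were higher, and 1, Ets1 (-0.27), was lower. The higher genes included Crabp1 and Sox9, the retinoic acid binding protein Crabp2 (1.23), Tfap2b (0.76), an AP-2 factor, Ednrb (0.43), the endothelin receptor B, and Zeb2 (0.35). In the IGF axis 6 of 10 genes were higher and 1 was lower. The binding proteins Igfbp4 (0.70) and Igfbp2 (0.54), the receptors Insr (0.39) and Igf2r (0.36) and the growth factor Igf2 (0.34) were higher with Igfbp5, while the binding protein Igfbp3 was lower (-0.83).

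In the WNT pathway 15 of 28 measured genes were higher and 4 were lower, with a median difference of 0.15. Among ligands, Wnt8a was higher by 1.45 ± 0.06 and Wnt3, an inducer of the primitive streak, was lower by a difference of -0.26 ± 0.05. Among receptors, Fzd2 (0.90 ± 0.06) and Fzd7 (0.89 ± 0.05) were higher, and Fzd10 was lower (-0.67 ± 0.07). Axin2, a feedback inhibitor that the pathway itself induces, was higher by 0.79 ± 0.05, and Sfrp1, a secreted inhibitor, by 1.63 ± 0.13. The pathway's central protein gene Ctnnb1 and the WNT target Sp5 differed by 0.07 ± 0.12 and -0.08 ± 0.11 and were not called.

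Genes of the interferon response and of antigen presentation were lower in GY118F EpiSCs. Of 22 measured genes 16 were lower and 2 higher, with a median difference of -0.71; without GY118F replicate 3 the counts were 17 and 2. Ifitm3, which encodes a membrane protein that restricts virus entry, had levels of 7.93, 7.80 and 7.78 on the GY118F arrays and 11.42, 11.35 and 11.47 on the control arrays. Its difference was -3.58 ± 0.06 (limma, Benjamini-Hochberg adjusted p = 9.56e-13). Its neighbour Ifitm1 was lower by a difference of -1.85 ± 0.09, and Ifitm2 differed by 0.07 ± 0.08 and was not called. The inducible proteasome subunits Psmb8 (-2.05 ± 0.06), Psmb10 (-1.08 ± 0.09) and Psmb9 (-0.53 ± 0.06) and the peptide transporter Tap2 (-0.93 ± 0.08) were lower. B2m, the invariant chain of class I molecules, differed by -0.15 ± 0.06 and was not called, while the class I heavy chain gene H2-K1 was higher by 0.47 ± 0.08.

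Irf1, a transcription factor that both interferon gamma and STAT3 signalling induce, had levels of 9.41, 9.51 and 10.10 on the GY118F arrays and 11.73, 11.71 and 11.70 on the control arrays, a difference of -2.04 ± 0.13. Gbp2, a guanylate-binding protein, had levels of 8.57, 8.56 and 9.15 against 10.50, 10.41 and 10.57, a difference of -1.73 ± 0.13. GY118F replicate 3 was again the GY118F array nearest to the controls in both. Without it the differences of Irf1 and Gbp2 were -2.25 and -1.93. The related Gbp2b (-1.40 ± 0.15) and Gbp3 (-0.38 ± 0.09), the receptor Cd40 (-1.18 ± 0.18), the ubiquitin-like modifier Isg15 (-1.06 ± 0.05), its protease Usp18 (-0.88 ± 0.06) and the interferon factor Irf9 (-0.38 ± 0.05) were lower too. Bst2, which encodes the virus-tethering protein tetherin, went the other way by 1.29 ± 0.12.

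With G-CSF, the list split. The GY118F line then had 7 members higher and 9 lower, with a median of 0.02. Irf1 and Gbp2 differed between the stimulated lines by 0.13 and 0.19, Gbp2b and Cd40 by 0.75 and 0.92 in favour of GY118F. Ifitm3 (-3.09), Ifitm1 (-1.66) and Psmb8 (-1.47) were lower in the GY118F line there as well.

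Promoters of 5 genes picked from these patterns are shown, each as the 200 bases before the RefSeq start site (GRCm38.p6), written 5′ to 3′ on the gene's own strand. For each gene a window that held a match was taken, so the presence of a match is no result. Capitals mark matches to the STAT-type motif TTCNNNGAA or to the interferon-type motif (GAAA, 2 bases of any kind, then GAAA), both searched on both strands. Irf1 and Gbp2 were lower in GY118F EpiSCs without G-CSF and near the control with it, Isg15 was lower in both, Bst2 was higher in both, and Socs3 is the STAT3 feedback gene described next.
Irf1 (chr11:53769814-53770013, plus strand, STAT-type): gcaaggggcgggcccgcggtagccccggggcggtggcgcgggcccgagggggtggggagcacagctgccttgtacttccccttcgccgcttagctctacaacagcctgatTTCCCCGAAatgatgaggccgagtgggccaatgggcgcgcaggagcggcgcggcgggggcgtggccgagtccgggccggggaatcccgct
Gbp2 (chr3:142620463-142620662, plus strand, interferon-type, read on the opposite strand): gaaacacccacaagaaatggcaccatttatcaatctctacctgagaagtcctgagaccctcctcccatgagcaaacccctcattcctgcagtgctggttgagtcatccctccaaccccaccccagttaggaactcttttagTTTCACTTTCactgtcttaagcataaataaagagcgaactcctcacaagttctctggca
Isg15 (chr4:156200819-156201018, minus strand, overlapping interferon-type matches): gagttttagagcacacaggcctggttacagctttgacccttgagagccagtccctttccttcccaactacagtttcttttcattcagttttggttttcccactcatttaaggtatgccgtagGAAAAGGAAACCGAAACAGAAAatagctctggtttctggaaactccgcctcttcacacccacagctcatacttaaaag
Bst2 (chr8:71537473-71537672, minus strand, a STAT-type match that overlaps interferon-type matches): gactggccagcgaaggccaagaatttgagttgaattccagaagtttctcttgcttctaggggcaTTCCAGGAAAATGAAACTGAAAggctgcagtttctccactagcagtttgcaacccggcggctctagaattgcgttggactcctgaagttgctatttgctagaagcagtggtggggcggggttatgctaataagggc
Socs3 (chr11:117969367-117969566, minus strand, STAT-type): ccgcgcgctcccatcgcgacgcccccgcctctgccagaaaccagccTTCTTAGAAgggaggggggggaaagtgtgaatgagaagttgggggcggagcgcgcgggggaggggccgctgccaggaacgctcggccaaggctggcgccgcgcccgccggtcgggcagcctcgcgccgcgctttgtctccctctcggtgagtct
The counts that follow are for whole promoter windows, which are longer than the 200 bases shown. Of 7229 measured autosomal genes with a window, 3.54% held the interferon-type letters and 8.04% the STAT-type letters. Of 19 measured interferon-list genes with a window, 9 held the interferon-type letters and 6 the STAT-type letters. Of the 13 that were lower, 5 held the interferon-type and 5 the STAT-type letters; of the 6 that were not lower, 4 and 1 did. Ifitm1, Psmb9, Psmb10 and Irf9, which were lower, held neither. These matches describe the letters in the windows and show no binding.

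Stat3 RNA did not separate the unstimulated lines: it differed by -0.01 ± 0.08, and its arrays overlapped. Its levels were 7.83 to 7.92, near the lower end of the range, where a difference may not be resolved. STAT3 protein and its activity were not measured on these arrays. Socs3, the STAT3-induced feedback inhibitor of gp130 signalling, had levels of 8.96, 8.94 and 8.98 on the GY118F arrays and 8.19, 8.22 and 8.27 on the control arrays. The groups did not overlap, and the difference was 0.73 ± 0.04, a fold of 1.66 (limma, Benjamini-Hochberg adjusted p = 7.54e-08). With G-CSF the same line difference was 3.91. Klf5, another gene that STAT3 induces in pluripotent cells, differed by -0.04 ± 0.07 without G-CSF and was not called. Of 18 measured STAT3 feedback and early target genes, Gadd45g and Socs3 were higher and 7 were lower, among them Irf1, Cebpb (-0.90 ± 0.08), a C/EBP factor, and the AP-1 gene Junb (-0.23 ± 0.05). Without GY118F replicate 3 the lower members numbered 9. Of 17 components of the JAK-STAT pathway 0 were higher and 3 lower, by limma calls, and the share lower is close to the 17.5% of all autosomal genes. The lower genes were the adaptor Gab1 (-0.57 ± 0.05), Stat2 (-0.24 ± 0.07) and Pias1 (-0.18 ± 0.07), whose arrays overlapped and whose call was lost without any 1 of the GY118F arrays (adjusted p of 0.0771 to 0.105 by limma with Benjamini-Hochberg). Jak1, Jak2 and Ptpn11, which encodes Shp2, differed by 0.04 ± 0.07, 0.12 ± 0.06 and 0.18 ± 0.07 and were not called.

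**Figure D3:**
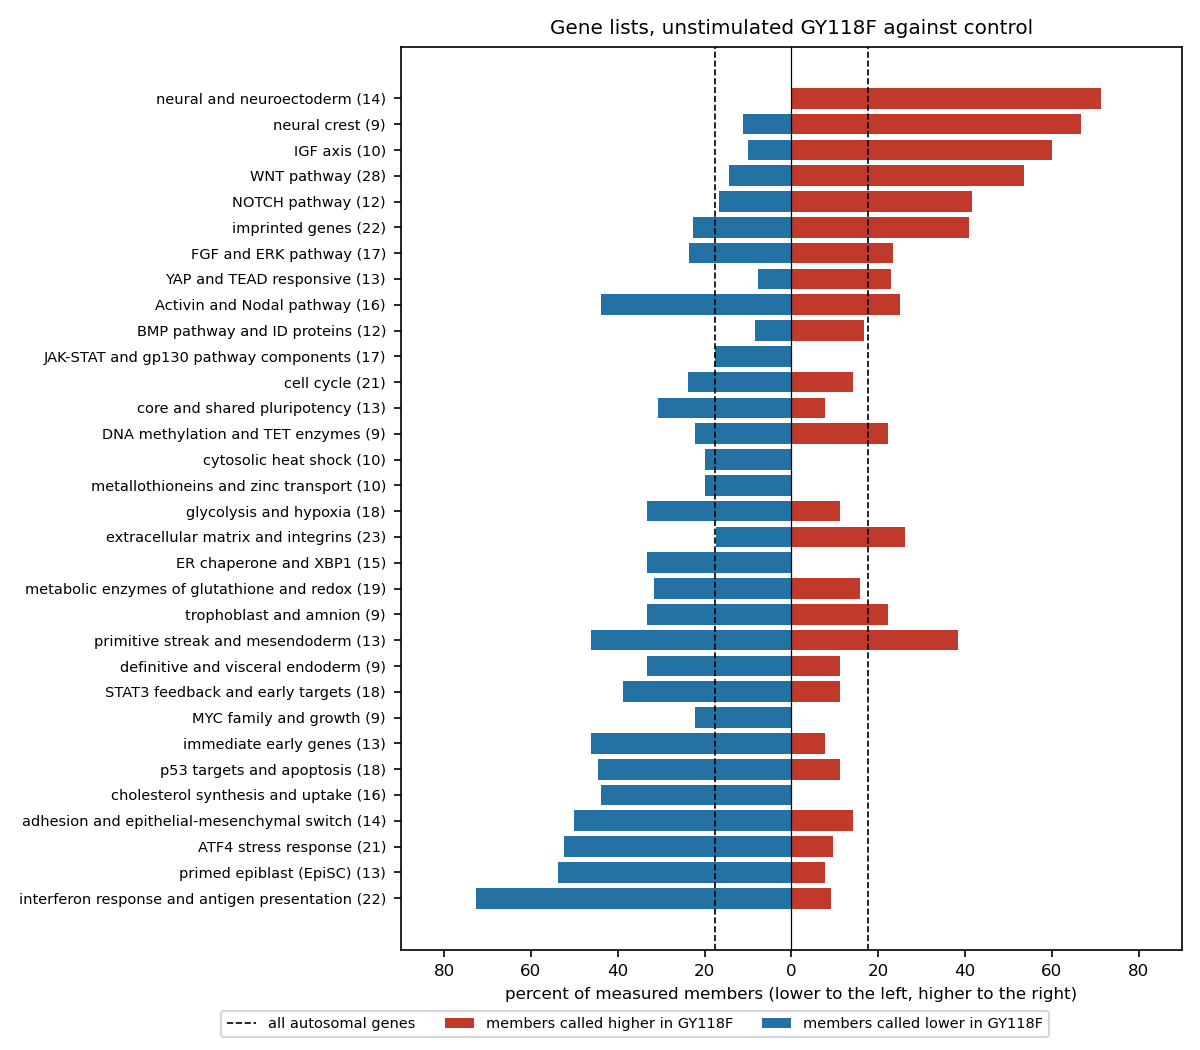
For each gene list with at least 9 measured autosomal members (number in brackets), the percent of members called higher (red, to the right) and called lower (blue, to the left) in unstimulated GY118F EpiSCs. The dashed lines are the shares over all autosomal genes, 17.7% and 17.5%; the neural list reaches farthest to the right and the interferon list farthest to the left.

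Several stress and metabolism lists had more members lower than higher, where 17.5% of all autosomal genes were lower and 17.7% higher. Of 21 measured ATF4 stress genes 11 were lower and 2 higher, and without GY118F replicate 3 the lower members numbered 9. They included the stress regulator Nupr1 (-1.61), the transcription factors Atf3 (-0.64) and Atf5 (-0.50) and the pseudokinase Trib3 (-0.39). Some ATF4 genes lie in regions that were shifted as a whole, as described with the autosomes. Outside those regions 7 of 16 were lower and 1 higher. Of 16 cholesterol and lipid synthesis genes 7 were lower and 0 higher, by limma calls, among them lanosterol synthase, Lss (-0.63), Insig1 (-0.54), which retains the sterol sensor in the endoplasmic reticulum, and the desaturase Scd1 (-0.47). Of 18 p53 and apoptosis genes 8 were lower and 2 higher. The cell cycle inhibitor Cdkn1a had levels of 9.05, 8.96 and 9.04 on the GY118F arrays and 9.92, 9.98 and 10.15 on the control arrays, with no overlap. Trp53inp1 (-0.65), a p53 target, and the p53 inhibitor Mdm2 (-0.39) were also among the lower ones.

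Of 14 adhesion and epithelial-mesenchymal genes 7 were lower and 2 higher, with Esrp1 (-1.09), an epithelial splicing regulator, P-cadherin, Cdh3 (-0.70), keratin Krt8 (-0.46) and E-cadherin, Cdh1 (-0.35), among those lower. With G-CSF 3 of the 14 were lower and 2 higher. Of 13 YAP-responsive genes 3 were higher and 1, Ccn2, which encodes a secreted matrix protein, was lower, with a list median of 0.05. The shares over all autosomal genes were 17.7% and 17.5%. Ccn2 had levels of 8.49, 8.30 and 8.93 on the GY118F arrays and 10.58, 10.54 and 10.77 on the control arrays, which did not overlap. Plod2, a collagen lysyl hydroxylase outside these lists, had levels of 8.83, 8.84 and 8.99 against 11.99, 12.13 and 12.18, a difference of -3.21 ± 0.07. The remaining genes among the 15 largest falls were the transporter Abcc4 (-1.93), the neuronal intermediate filament gene Prph (-1.70), the protease inhibitor Spink1 (-1.65) and Ccdc167 (-1.62).

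**Figure D4:**
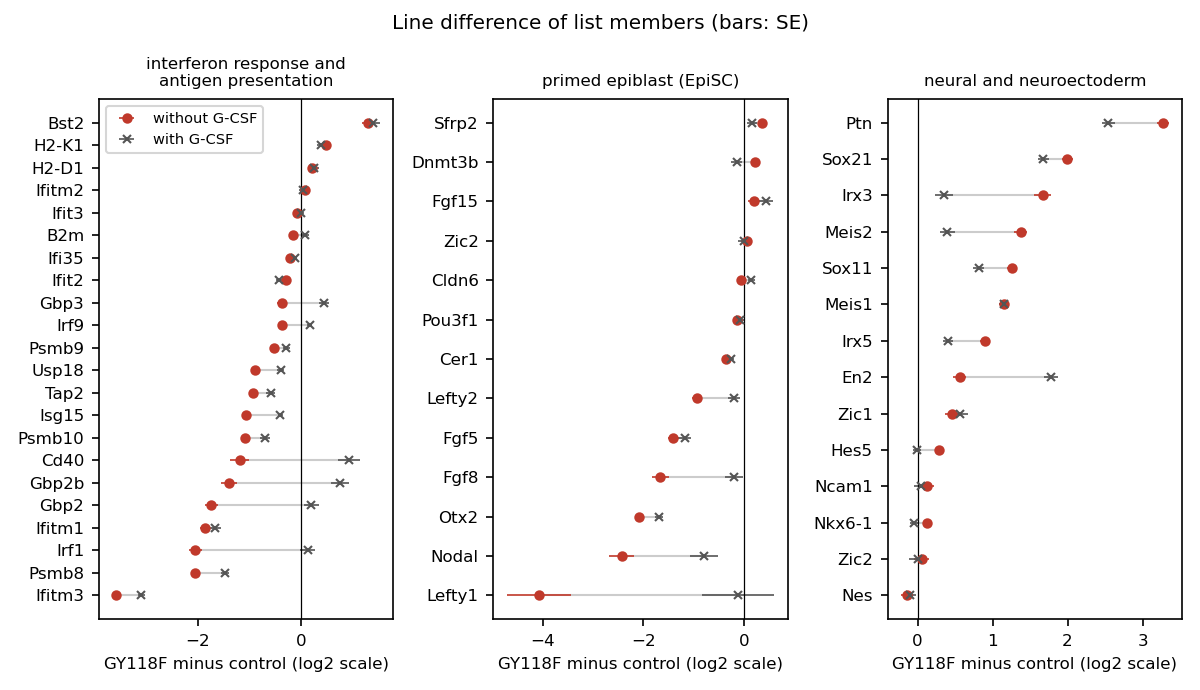
Difference between the lines (GY118F minus control, log2 scale) of the single members of gene lists named in the text, without G-CSF and with G-CSF. Neural members lie at or above 0 with few exceptions, whereas interferon members lie mostly below 0 without G-CSF and on both sides of it with G-CSF.

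Markers of other cell types were compared to see what else the samples could hold. Of 6 measured fibroblast and feeder markers (16 listed), the matrix gene Dcn (0.38) and Vim (0.23) were higher and Thy1 (-0.82) and Pdgfra (-0.18) lower. The mean level of the 6 was 8.60 to 8.65 on the GY118F arrays and 8.59 to 8.73 on the control arrays. Of 4 measured haematopoietic markers (15 listed), Tal1 was lower (-0.63), and their mean level was 7.43 to 7.50 against 7.59 to 7.60, near the lower end of the array's range. Of 9 measured endoderm markers (20 listed) 3 were lower and 1 higher. Of 9 measured trophoblast and amnion markers (16 listed) 3 were lower and 2 higher. Over all autosomal genes 17.7% were higher and 17.5% lower. With so few members, the counts of these lists are not read as a result. Gata6, Dab2 and Foxa1 (-0.44, -0.41 and -0.37) were the endoderm markers that were lower. The part of other cells in the results was not tested.

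The line difference on the arrays with G-CSF, which share no array with the unstimulated comparison but share its estimate of the spread, called 2811 autosomal genes (31.7%), 1481 of them higher (16.7%) and 1330 lower. Of the 1568 genes higher without G-CSF, 972 were higher there too (62.0%; 65.6% of the 1481), and 13 were lower. Of the 1551 genes lower without G-CSF, 878 were lower there too (56.6%; 66.0% of the 1330), and 45 were higher. When each comparison was fitted on its own arrays, the shared genes numbered 859 and 779. Emb, Ptn, Igfbp5, Ifitm3 and Plod2 kept differences of 3.27, 2.55, 2.88, -3.09 and -2.93 with G-CSF. Lefty1, Ccn2 and Fgf8 differed by -0.11, -0.09 and -0.20 there. For Ccn2 the control mean was 8.11 with G-CSF, against 10.63 without it. The difference between the line differences was called in 569 autosomal genes (6.41%), in 163 of the 1568 that were higher and 228 of the 1551 that were lower.

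The differences were not spread evenly over the autosomes. On chromosome 11 the median difference of 795 genes was 0.17, and 386 of them were higher (48.6%) against 69 lower. On chromosome 2 the median of 734 genes was -0.10, with 243 lower (33.1%) and 45 higher. On each of the other 17 autosomes the median lay between -0.01 and 0.02, with 11.8% to 19.15% of genes higher and 13.9% to 22.8% lower. Chromosome 11 held 8.96% of the autosomal genes and 24.6% of the calls that were higher. Chromosome 2 held 8.27% of the genes and 15.7% of the calls that were lower. With G-CSF the medians were 0.15 on chromosome 11 and -0.12 on chromosome 2.

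Another region was the end of chromosome 4. For this the measured genes of each autosome were cut, in order of position, into 10 bins of equal size. The last bin of chromosome 4, 58 genes from Lzic to Noc2l, was chosen after its values were seen. There the median difference was -0.39, with 46 genes lower and 2 higher, and 56 of 58 were below 0. The preceding bin had a median of -0.07. Highly expressed genes of the region were lower together: Park7 (-1.04), a redox-protective protein gene, Gnb1 (-0.94), a G protein beta subunit gene, Acot7 (-0.99), an acyl-CoA thioesterase gene, Rpl22 (-0.68), a ribosomal protein gene, and Agrn (-1.10), which encodes agrin. With G-CSF the median of the region was -0.32. Isg15 and Ski lie in it as well.

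On chromosome 11 the shift was not uniform along the order of genes. The medians of its bins ran from -0.08, in bin 4 from Usp22 to Mink1, to 0.34 in bin 9, where 77.2% of genes were higher. The brightest genes of the last bin included P4hb (0.64), the disulfide isomerase gene, the RNA export gene Alyref (0.80), Mrpl12 (0.81), a mitochondrial ribosomal protein gene, and Birc5 (0.34), which encodes survivin. Srsf2, a splicing factor gene of the same bin and among its brightest, differed by 0.10 and was not called. On chromosome 2 every bin had a median between -0.14 and -0.05. In blocks of about 20 genes over all autosomes, 16 of 444 had a median over 0.2 in size, 13 of them on chromosome 11 and 3 on chromosome 4.

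The shift was present on every array. Relative to each gene's mean over all 11 arrays, the median of chromosome 11 genes was 0.07 to 0.08 on the unstimulated GY118F arrays and -0.08 on the control arrays, and the last bin of chromosome 4 stood at -0.21 to -0.15 against 0.16 to 0.20. The median differences were larger among the brighter 50% of genes, 0.28 on chromosome 11, -0.16 on chromosome 2 and -0.68 in the last bin of chromosome 4. DNA copy number was not measured. Sox9, Irf1, Socs3 and Axin2 are on chromosome 11, Meis2 and Cebpb on chromosome 2, and their part in the regional shift was not tested. These are examples, and other genes named above, among them further neural genes, lie in the shifted regions too. Outside chromosome 11, chromosome 2 and the last bin of chromosome 4, 1135 of 7290 genes were higher (15.6%) and 1193 lower (16.4%). There, 7 of 11 neural genes were higher and 0 lower by limma calls, and 12 of 17 interferon genes were lower and 2 higher.

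**Figure D5:**
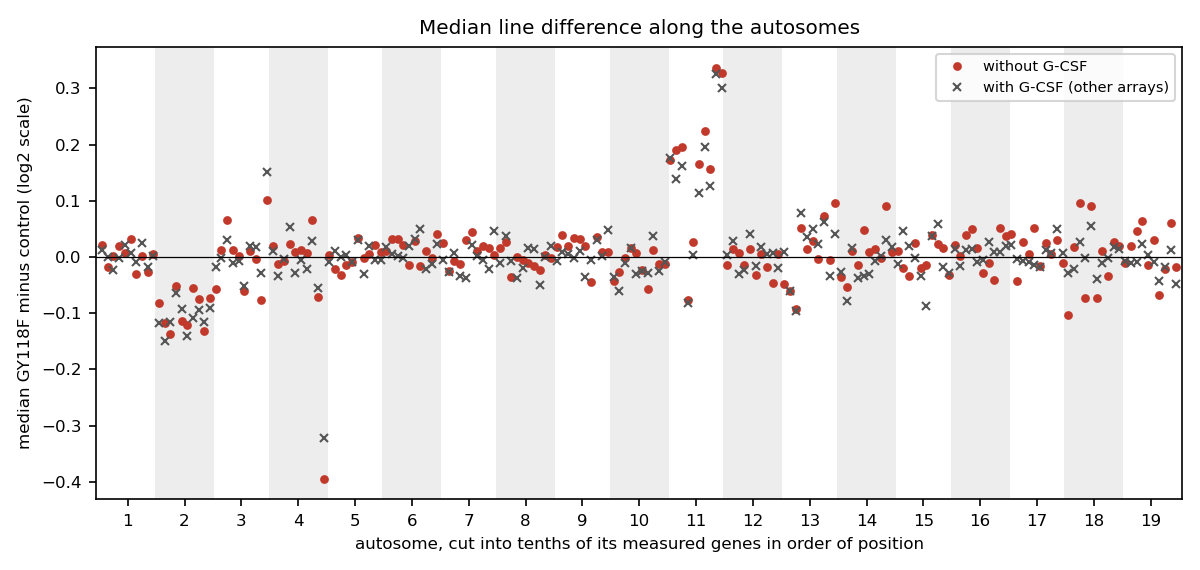
Median difference between the lines (GY118F minus control, log2 scale) in the 10 bins of each autosome's measured genes in their order, without G-CSF (red) and with it (crosses). Chromosome 11 stands above 0 in most bins, up to 0.34, chromosome 2 lies below 0 throughout, and the last bin of chromosome 4 reaches -0.39. Without G-CSF all remaining bins of the other autosomes lie between -0.103 and 0.101. With G-CSF the highest of them is 0.152, on chromosome 3.

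Genes with more than 1 probe gave a check of single probes. At the level of probes, 2061 of 13243 were higher and 2075 lower. Of 3107 autosomal genes with more than 1 probe, 16 had probes called in opposite directions. No detection p-values were used, so a gene near the lower end of the range, such as Cer1, Lefty2 or Isg15 on the GY118F arrays or Emb on the control arrays, may have had a level below what the array resolves, and its difference may then understate the true one.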

How the data were processed

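Total RNA from 11 samples was amplified, labelled with biotin and hybridised to Illumina mouse arrays (labels' protocols). The authors processed the arrays with lumi, per the submitters' processing notes, and deposited values on a log2 scale. Neither the version of lumi nor the kind of transformation (log2 itself, or one that stabilizes the variance) is given in the sources used here. No sorted column differed from another by more than 0.00116, which is how quantile normalization leaves values, so array totals carry no depth. The number of arrays limits the precision.

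Probes were named through GEO's platform annotation: 13711 had 1 symbol, 5 had several and 2002 had none. Chromosomes and gene order came by gene ID from RefSeq (GRCm38.p6). Each symbol was represented by its brightest probe (mean of all 11 arrays), which gave 11208 features with the unnamed probes. All 11 arrays in 4 groups were fitted with limma 3.58.1 in R 4.3.3 (lmFit, eBayes) without a block. Tests were two-sided, at 0.05 after Benjamini-Hochberg adjustment across the 11208 features. Adjusted p-values in the text come from this fit, and values after ± are its standard errors. Same-numbered unstimulated arrays did not deviate together, so the numbers were not used as pairs.

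Named genes are those with the 15 strongest differences in each direction that were called, autosomal, free of overlap between arrays and not under a provisional symbol, together with members of 38 gene lists and a few fixed genes. The members and lists were chosen with earlier results of these data known, so no list carries a test. On simulated data for the unstimulated comparison with 11208 features, 25 of 50 features changed 1.2-fold and 48 of 50 changed 1.4-fold were recovered, with 14 false calls. Another 50 each were changed 2-fold and 4-fold. So few changed features make the adjusted threshold stricter than in the data. The recovery and the number of false calls therefore do not carry over to the real comparison. The alternatives were a replicate block, a fit of the compared arrays alone, all probes, leaving out the dimmer 50 percent, a second quantile normalization, median centring, a floor, eBayes with trend and robust, array weights, stricter thresholds and leaving out each array.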

Additional observations from a re-analysis of the deposited data

Results flagged for a closer look

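For 23 of 37 named genes the difference between the lines was not the same with and without G-CSF, by the test of that difference itself (limma, Benjamini-Hochberg adjusted over all features), against 6.41% of all autosomal genes. Of the 37, 30 were chosen for the size of their unstimulated difference, which enters this test, and that choice favours a move towards 0, so the count is not compared with the share. The values are the line difference with G-CSF minus the line difference without it, on the log2 scale. Among genes higher in unstimulated GY118F EpiSCs, it was -0.723 for Ptn, -1.39 for Gbx2, -1.67 for Sox9, -0.318 for Gdnf, -0.272 for Epdr1, -0.555 for Ddah1, -0.588 for Cited2, -0.445 for Cbwd1 and -1.12 for Fgfr2, so that the lines lay closer together with G-CSF. For Gadd45g and Socs3 it was 0.428 and 3.18, and the lines lay farther apart. Among genes lower in unstimulated GY118F EpiSCs, it was 3.97 for Lefty1, 0.494 for Ifitm3, 1.64 for Nodal, 0.394 for Otx2, 1.97 for Ccn2, 0.572 for Psmb8, 2.17 for Irf1, 1.93 for Gbp2, 0.626 for Prph and 1.46 for Fgf8. For Stat3 and Klf5, which did not separate the unstimulated lines, it was 2.21 and 1.69. Such values can come from either line. Without and with G-CSF, the control mean was 9.59 and 11.87 for Gbx2, 7.78 and 8.88 for Fgfr2, and 10.63 and 8.11 for Ccn2. For Fgf8 the control mean was 10.22 and 10.25, and the GY118F mean 8.56 and 10.05.

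Signals also appeared outside the autosomal genes. The Y-linked genes Eif2s3y and Kdm5d, the latter a histone demethylase gene, were higher on the unstimulated GY118F arrays by 1.68 and 0.66.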

How the results depend on the processing

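All genes named here as the largest rises and falls, and Socs3, Nanog, Pou5f1 and Fgf5, kept their direction and their call under every alternative that gave them a value. Stat3, Klf5 and Il6st, none of them called, changed sign or reached 0: with 1 array left out Stat3 ran from -0.0396 to 0.0083 and Klf5 from -0.1139 to 0.0376, and Il6st was 0.00 with a floor at the 25th percentile. Leaving out the dimmer 50 percent of features gave 960 autosomal genes higher and 920 lower without G-CSF, 931 and 840 with it, 1192 called the same way in both and 309 with a called difference of differences, with medians of 0.28 on chromosome 11 and -0.16 on chromosome 2; fewer genes were tested. A threshold of 0.01 gave 983 higher and 832 lower with G-CSF, 1173 shared, 266 differences of differences and 149 genes lower on chromosome 2. A fold of at least 1.4 gave 299 and 329 without G-CSF, 349 and 286 with it, 358 shared, 233 differences of differences, 109 genes higher on chromosome 11 and 41 lower on chromosome 2. The medians of chromosomes 11 and 2 were 0.139 and -0.0819 over all probes and 0.137 and -0.0655 with the floor, and chromosome 11 had 0.161 after median centring. For the last bin of genes on chromosome 4, added after seeing the data, the median was -0.35 over all probes and -0.68 without the dimmer features.

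Leaving out 1 array at a time gave 1303 to 1600 genes higher and 1253 to 1571 lower without G-CSF, 1006 to 1546 and 967 to 1374 with it, 1454 to 1798 shared and 371 to 714 differences of differences, where 371 came without GY118F G-CSF replicate 2; the stimulated GY118F arrays are numbered 2 and 3 here, after their source names, while their titles number them 1 and 2, and the block over all 11 arrays rests on that choice. The median of chromosome 11 was 0.155 to 0.168, with 345 to 389 genes higher, and that of chromosome 2 -0.0975 to -0.0919, with 180 to 251 lower. Same-numbered unstimulated arrays had deviations that correlated at 0.138, -0.0686 and -0.241, so the replicate numbers do not pair them; with a replicate block the counts were 1594 higher and 1548 lower over all 11 arrays, and 1416 and 1376 over the arrays compared alone. Without detection p-values, signal over background limits what can be said of dim genes.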

Other observations

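Imprinted genes, which are expressed from 1 parental copy, differed in both directions. Of 22 measured genes 9 were higher and 5 lower in unstimulated GY118F EpiSCs, with a median difference of 0.07. The share lower, 22.7%, was not far from the 17.5% of all autosomal genes, and 17.7% of those were higher. Outside chromosome 11, chromosome 2 and the last bin of chromosome 4, 7 of 17 were higher and 4 lower. The growth factor receptor adaptor Grb10 (0.84), Mest (0.66), Ndn (0.64) and Mkrn3 (0.50) were higher. Phlda2 (-1.49), the cell cycle inhibitor Cdkn1c (-1.43) and Slc22a18 (-0.52), which neighbour each other in an imprinted cluster of chromosome 7, were lower. Glutathione and redox enzymes were mixed as well: Gstp1 (1.60) and Mgst1 (1.32), both glutathione transferase genes, were higher, and Gclm (-0.86), a subunit gene of the enzyme that starts glutathione synthesis, was lower. The cyclin gene Ccnd1 was lower (-1.03).

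Some differences between the lines had opposite signs with and without G-CSF. Wnt8a differed by 1.45 without G-CSF and -0.81 with it, Fst by 1.21 and -0.37, Fzd10 by -0.67 and 0.54, and Ngfr, a neurotrophin receptor gene, by -0.27 and 1.45; all were called both times. These genes were chosen after their values were seen.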
